A study of Oryctolagus cuniculus with 6 samples.

Results

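Genes that make, regulate, store and export cholesterol were examined in the facial nerve of rabbits 14 days after transection, with and without an I-125 seed. The members were 28 genes chosen by name, namely enzymes of cholesterol synthesis, the SREBP transcription factors with their regulators, and genes for esterification, transport and export. Of the 28, 24 were listed in the count files by symbol and 2, IDI1 and CYP51A1, by a LOC number that the RefSeq gene table pairs with these symbols. MVD and DHCR7 were not analysed here. All 26 members with a value were among the 14003 genes, of 17396 in the files, that passed the filter on low counts, and the lowest count of a member in any library was 56. Both groups were male Japanese white rabbits of 3 to 4 months, labelled wild type, whose facial nerve trunk had been cut. The FNI group (n = 3) had the transection alone, and the FNI+I-125 group (n = 3) also received an I-125 seed of 0.8 mCi near the nerve, so the comparison addresses what the seed adds to the injury. Uninjured (sham) nerves were not analysed here, and each library stands for 1 rabbit.

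Cholesterol is built from acetyl-CoA. The mevalonate pathway yields isoprenoid units, which are joined to squalene, closed to lanosterol, the first sterol, and trimmed to cholesterol. SREBP transcription factors switch these enzymes on when sterols in the endoplasmic reticulum run low, SCAP escorts them to the Golgi for activation, and INSIG proteins hold them back when sterols are plentiful. Myelin is rich in cholesterol, which Schwann cells largely make themselves, and after nerve injury macrophages that engulf myelin debris esterify the surplus or pass it out of the cell through ABCA1 and ABCG1.

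Total counts ran from 16031151 to 16798012 per library. Values are CPM, counts scaled to each library's size with edgeR's TMM factors, and groups of 3 values follow the replicate numbers. Log2 fold changes set FNI+I-125 against FNI. Some libraries stood apart. FNI replicate 3 held the highest summed level of the 13 Schwann cell markers, 40210 CPM against 4592 to 8200 in the other FNI libraries, and of the 6 adipocyte markers with a value, 3197 CPM against 1322 to 1637. FNI+I-125 replicates 1 and 2 held 4673 and 4074 CPM of the 9 skeletal muscle markers with a value, and the other 4 libraries 17.9 to 76.8 CPM. The 10 gland epithelium markers summed to 48760 CPM in FNI replicate 2, of which DNASE1 gave 48030 CPM, and to 56.6 to 3481 CPM elsewhere. Their mean log2(CPM + 1) was highest in FNI replicate 1, at 6.95 against 6.46 in FNI replicate 2. The summed level of the Schwann cell markers was at least 887 CPM in every library. In such tissue RNA, fewer cells of a type and less RNA per cell cannot be told apart.

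**Figure D1:**
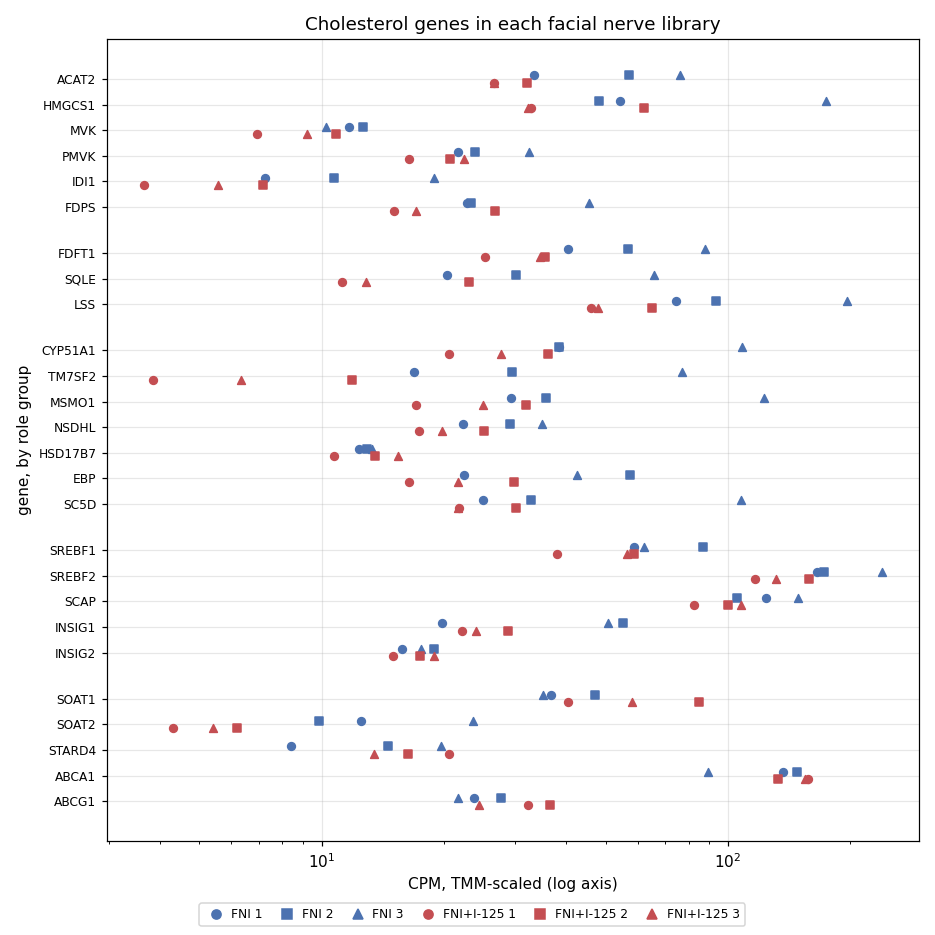
TMM-scaled CPM (horizontal log axis) of the 26 cholesterol genes (vertical axis, in role groups from the mevalonate pathway at the top to esterification, transport and export at the bottom) in the 3 FNI libraries (blue) and the 3 FNI+I-125 libraries (red), 1 point per library with the replicate as the symbol. FNI replicate 3 is the highest of the 6 libraries for 13 of the 16 synthesis enzymes, and FNI+I-125 replicate 1 the lowest for 13 of them.

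Synthesis enzymes were mostly lower in the FNI+I-125 group. Of the 16 enzymes with a value, 15 had a negative log2 fold change, and the median of the 16 was -1.04, where 48.9% of all genes tested were negative and their median was 0.01. The summed level of the 16 enzymes was 453, 591 and 1213 CPM without the seed and 292, 461 and 346 CPM with it. The groups overlapped in this sum, since FNI+I-125 replicate 2 lay just above FNI replicate 1, and FNI replicate 3 stood far above the other FNI libraries. The group values were 752 ± 405 CPM and 366 ± 86.7 CPM (SD, n = 3 each).

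No gene passed the study's criteria, an adjusted p under 0.05 with |log2 FC| of 1.5 or more, in the quasi-likelihood test of edgeR, adjusted by Benjamini-Hochberg: 0% of all genes were called higher and 0% lower, and 0 of the 26 members. The members' adjusted p ran from 0.280 to 0.941 in that test. At an unadjusted p under 0.05, 8 members were lower and 0 were higher, against 7.73% and 9.23% of all genes tested (1082 lower and 1293 higher, or 1379 and 1008 with upper-quartile normalization). The 8 were ACAT2, IDI1, FDFT1, SQLE, LSS, TM7SF2, SREBF2 and SOAT2. All FNI+I-125 libraries were under all FNI libraries for 8 members (the same list with CYP51A1 in place of SQLE) and above them for 0, against 12.3% and 14.8% of all genes. With DESeq2 (Wald test, Benjamini-Hochberg), 2 members met the criteria, TM7SF2 (adjusted p = 0.0091) and SOAT2 (adjusted p = 0.013), both lower, where 1.16% of all genes were called lower and 1.69% higher. In limma-voom 0 members met them.

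These counts changed with the library left out, and each such fit also had fewer libraries from which to estimate the spread. With FNI replicate 3 left out, 5 members were lower at the unadjusted p (ACAT2, FDFT1, LSS, TM7SF2 and SOAT2), where 5.24% of all genes were, and the median log2 fold change of the synthesis enzymes was -0.46, with 15 of 16 still negative. Without FNI replicate 1, in contrast, 14 members passed, where 7.43% of all genes did. Leaving out FNI+I-125 replicate 1 or 3 left 2 and 3 members, where 3.71% and 6.63% of all genes were lower, and the synthesis medians were -0.93 and -0.99. Leaving out both muscle-rich libraries left 0 members, where 2.18% of all genes were lower, with a synthesis median of -1.14 from a single FNI+I-125 library that is assumed to vary like the others.

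The mevalonate pathway group had a median log2 fold change of -0.80 over 6 enzymes, all negative, or -0.37 without FNI replicate 3. ACAT2, the cytosolic thiolase that joins acetyl-CoA units at the entry to the pathway, stood at 33.2, 57.0 and 76.1 CPM in the FNI libraries and at 26.6, 32.0 and 26.5 CPM in the FNI+I-125 replicates. The groups did not overlap, the FNI+I-125 libraries lay close together, and FNI replicate 1 was the nearest to them. Its log2 fold change was -0.97 (standard error, SE, 0.31). The ACAT2 gene overlaps TCP1 in the rabbit RefSeq annotation, so reads from their shared stretch may have been counted for either. Long noncoding RNA genes overlap IDI1, SQLE, EBP and INSIG2 there, and a pseudogene overlaps SCAP. IDI1, which isomerizes the isoprenoid unit, had 7.25, 10.8 and 18.9 CPM against 3.66, 7.17 and 5.57 CPM. FNI replicate 1 and FNI+I-125 replicate 2 were almost level, and the log2 fold change was -1.17 (SE 0.44), or -0.73 without FNI replicate 3.

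HMGCS1 makes HMG-CoA, the precursor of mevalonate. It stood at 54.3, 48.1 and 174 CPM in the FNI group and at 32.8, 62.3 and 32.3 CPM in the FNI+I-125 group. FNI replicate 3 was more than 3 times either of the other FNI libraries, FNI+I-125 replicate 2 lay above both of them, and the log2 fold change of -1.12 (SE 0.58) became -0.29 without FNI replicate 3. FDPS, which makes farnesyl diphosphate, the branch point to sterols and to protein prenylation, behaved likewise with 22.8, 23.3 and 45.5 CPM against 15.1, 26.7 and 17.1 CPM, and its log2 fold change was -0.64, or -0.25 without that library. The kinases MVK and PMVK, which phosphorylate mevalonate, had the smallest differences of the group. MVK stood at 10.3 to 12.6 CPM against 6.92 to 10.9 CPM, with a log2 fold change of -0.36 that ran from -0.54 to -0.20 without FNI+I-125 replicate 2 or 1, and was the 1 enzyme of the group for which FNI replicate 3 was the lowest FNI library. PMVK stood at 21.7 to 32.5 CPM against 16.4 to 22.5 CPM, with a log2 fold change of -0.39, or -0.22 without FNI replicate 3.

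The 3 enzymes that lead from farnesyl diphosphate to lanosterol had a median log2 fold change of -1.19, or -0.68 without FNI replicate 3, and each had an unadjusted p under 0.05. FDFT1, squalene synthase, commits the pathway to sterols. Its levels were 40.3, 56.8 and 87.7 CPM in the FNI group and 25.2, 35.4 and 34.5 CPM in the FNI+I-125 group, without overlap, and the log2 fold change was -0.96 (SE 0.31), or -0.63 without FNI replicate 3. SQLE, squalene epoxidase, an oxygen-dependent control step, had 20.4, 30.1 and 65.7 CPM against 11.2, 23.0 and 12.8 CPM. FNI+I-125 replicate 2 was above FNI replicate 1 for SQLE, and the log2 fold change was -1.30 (SE 0.51), or -0.70 without FNI replicate 3. LSS, lanosterol synthase, closes the ring system and stood at 74.4, 93.2 and 196 CPM against 45.9, 65.0 and 47.9 CPM. LSS did not overlap between the groups, with a log2 fold change of -1.19 (SE 0.39), or -0.68 without FNI replicate 3.

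Of the 7 enzymes with a value that convert lanosterol to cholesterol, 6 were negative, with a median log2 fold change of -1.14, or -0.41 without FNI replicate 3. TM7SF2, a sterol C14 reductase, had the lowest log2 fold change of all members. It stood at 16.9, 29.4 and 77.2 CPM in the FNI libraries and at 3.85, 11.9 and 6.33 CPM in the FNI+I-125 libraries. All 3 FNI+I-125 libraries were below all FNI libraries, and the spread within each group was wide, 4.56-fold in the FNI group and 3.08-fold in the FNI+I-125 group, the widest of any member in both. The log2 fold change was -2.48 (SE 0.69, adjusted p = 0.280 by edgeR's quasi-likelihood test, Benjamini-Hochberg). With each library left out in turn it stayed between -3.04 and -1.67, the latter without FNI replicate 3.

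CYP51A1, the lanosterol demethylase that acts before TM7SF2, had 38.5, 38.5 and 108 CPM against 20.6, 35.99 and 27.7 CPM. The groups did not overlap, by a small margin between FNI+I-125 replicate 2 and the lower pair of FNI libraries. MSMO1, the C4 methyl oxidase, stood at 29.3, 35.6 and 122 CPM against 17.1, 31.9 and 25.0 CPM. SC5D, the desaturase late in the pathway, stood at 25.0, 32.7 and 108 CPM against 21.8, 30.2 and 21.6 CPM. All 3 genes had their high value in FNI replicate 3, and their log2 fold changes of -1.14, -1.34 and -1.17 became -0.47, -0.41 and -0.25 without this library.

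EBP, the sterol isomerase, was high in FNI replicate 2 instead, with 22.4, 57.5 and 42.4 CPM against 16.5, 29.7 and 21.6 CPM. Its log2 fold change was -0.85, and -0.52 without FNI replicate 2. NSDHL, which works with MSMO1 in removing the C4 methyl groups, had a smaller difference, with 22.2 to 34.8 CPM against 17.4 to 25.2 CPM and a log2 fold change of -0.47. HSD17B7, the ketoreductase of the same complex, was the 1 enzyme without a negative value. It stood at 12.3, 12.96 and 13.3 CPM in the FNI group and at 10.7, 13.5 and 15.4 CPM in the FNI+I-125 group. The FNI libraries lay within those of the FNI+I-125 group, and the log2 fold change was 0.04 (SE 0.19), with a sign that changed with upper-quartile normalization and without FNI+I-125 replicate 2 or 3 (-0.003, -0.008 and -0.10).

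**Figure D2:**
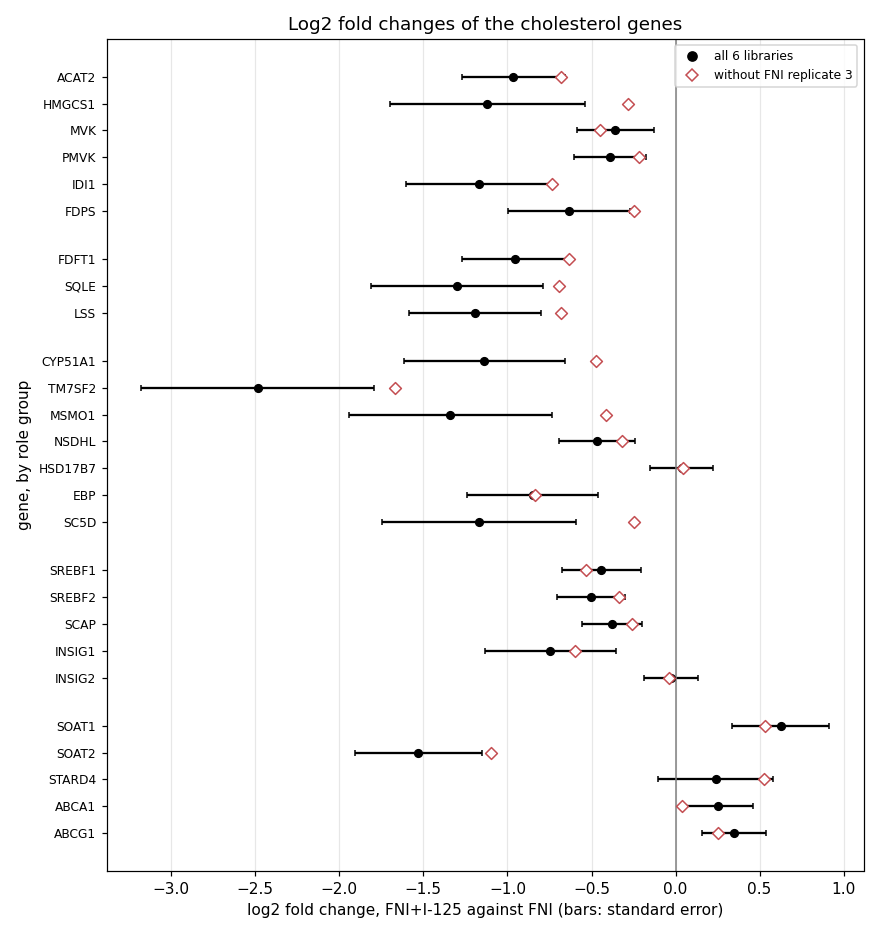
Log2 fold change of FNI+I-125 against FNI (horizontal axis) for the 26 cholesterol genes (vertical axis, in role groups), with all 6 libraries (black, bars showing the standard error) and without FNI replicate 3 (open diamonds). TM7SF2 is the farthest left at -2.48, most synthesis enzymes lie nearer 0 without FNI replicate 3, and SOAT1, STARD4, ABCA1 and ABCG1 lie to the right of 0.

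The SREBP regulators had a median log2 fold change of -0.44, or -0.27 without FNI+I-125 replicate 1, and all 5 were negative. SREBF2, which encodes SREBP-2, the main activator of cholesterol synthesis genes, stood at 165, 173 and 239 CPM in the FNI group and at 116, 159 and 132 CPM in the FNI+I-125 group. There was no overlap, and the log2 fold change of SREBF2 was -0.51 (SE 0.20), or -0.34 without FNI replicate 3. The SREBF2 gene also holds the microRNA gene MIR33A in the RefSeq annotation. SCAP, the SREBP escort, had 124, 105 and 148 CPM against 82.6, 99.9 and 108 CPM. FNI+I-125 replicate 3 lay just above FNI replicate 2 for SCAP, and the log2 fold change was -0.38 (SE 0.18).

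SREBF1, which encodes SREBP-1, the activator of fatty acid synthesis genes, had 58.6, 87.0 and 62.0 CPM against 37.9, 58.7 and 56.3 CPM. FNI replicate 2 was the high library here, FNI+I-125 replicate 2 lay barely above FNI replicate 1, and the log2 fold change was -0.44, or -0.25 without FNI replicate 2. INSIG1, itself a target of the SREBPs, had 19.8, 55.1 and 50.8 CPM against 22.1, 28.8 and 24.0 CPM. FNI replicate 1 was the lowest library of all for INSIG1 and the other FNI libraries the highest, so the groups overlapped (exact permutation test, two-sided, p = 0.4), with a log2 fold change of -0.74 (SE 0.39) that was -1.08 without FNI replicate 1. INSIG2, the isoform that does not depend on SREBPs in the same way, stood at 15.8 to 18.9 CPM against 14.95 to 18.9 CPM. Its log2 fold change was -0.03 (SE 0.16) and turned to 0.04 without FNI replicate 2 and 0.06 without FNI+I-125 replicate 1.

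Of the 5 esterification, transport and export genes, 4 were positive, none of these at an unadjusted p under 0.05, and the 1 that passed it, SOAT2, was lower like the enzymes above. The median log2 fold change was 0.25, or 0.39 without FNI replicate 2 and -0.03 without both muscle-rich libraries. SOAT1, which esterifies cholesterol for storage in droplets in most cells including macrophages, stood at 36.6, 47.1 and 35.1 CPM in the FNI group and at 40.5, 84.7 and 57.9 CPM in the FNI+I-125 group. FNI+I-125 replicate 1 lay below FNI replicate 2, and the log2 fold change of SOAT1 was 0.62 (SE 0.29), or 0.29 without FNI+I-125 replicate 2. SOAT2, the sister enzyme best known from liver and intestine, went the other way with 12.5, 9.88 and 23.6 CPM against 4.31, 6.201 and 5.40 CPM. All FNI+I-125 libraries lay below all FNI libraries for SOAT2, its log2 fold change was -1.53 (SE 0.38, adjusted p = 0.280 by edgeR's quasi-likelihood test, Benjamini-Hochberg), and with each library left out in turn it stayed between -1.77 and -1.10.

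The export pumps differed little. ABCA1, which loads cholesterol onto lipid-poor apolipoproteins, stood at 137, 148 and 89.4 CPM against 157, 133 and 155 CPM. Here FNI replicate 3 was the low library, FNI+I-125 replicate 2 lay below the other FNI libraries, and the log2 fold change of 0.25 (SE 0.21) was 0.04 without FNI replicate 3 and 0.39 without FNI replicate 2. ABCG1, which passes cholesterol to HDL, stood at 23.8, 27.6 and 21.7 CPM against 32.1, 36.4 and 24.5 CPM, with a log2 fold change of 0.35 (SE 0.19). FNI+I-125 replicate 3 lay below FNI replicate 2 for ABCG1, and the log2 fold change was 0.19 without FNI+I-125 replicate 2 and -0.03 without both muscle-rich libraries. STARD4, which carries free cholesterol between membranes and is a known SREBP target, had 8.42, 14.6 and 19.7 CPM against 20.6, 16.3 and 13.5 CPM. The groups overlapped widely for STARD4, and its log2 fold change of 0.24 (SE 0.34) was 0.53 without FNI replicate 3 and -0.03 without FNI replicate 1.

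Most synthesis enzymes had the same highest or lowest library within a group, though the genes were chosen with earlier results of these data known. These are separate counts and give no full order of the libraries. Of the other members, SREBF2, SCAP and SOAT2 were highest in FNI replicate 3, and SREBF1 and INSIG1 in FNI replicate 2. ABCA1 and STARD4 were highest in FNI+I-125 replicate 1, SOAT1 and ABCG1 in FNI+I-125 replicate 2, and INSIG2 in FNI+I-125 replicate 3. The share of all genes with the same highest or lowest libraries was not analysed here. In the FNI+I-125 group, replicate 2 was the highest library for 14 of the 16 synthesis enzymes, and in the FNI group replicate 1 was the lowest for 13. The highest FNI library was a median of 2.58 times the lowest for the synthesis enzymes, and the highest FNI+I-125 library a median of 1.66 times the lowest. Mean log2(CPM + 1) over the 16 enzymes was 4.66, 5.03 and 5.84 in the FNI replicates and 4.02, 4.69 and 4.31 in the FNI+I-125 replicates.

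Cell type markers also differed between the libraries, in part in another order. Within the FNI group the Schwann cell markers were lowest in replicate 2 and the enzymes in replicate 1. The mean log2(CPM + 1) of the 13 Schwann cell markers was 8.10, 7.47 and 9.36 without the seed and 5.35, 7.30 and 5.98 with it. FNI replicate 3 was again the highest library and FNI+I-125 replicates 1 and 3 the lowest, and all 13 markers had a negative log2 fold change, with a median of -2.54, or -1.03 without FNI replicate 3. The mean of the synthesis enzymes minus the mean of the Schwann cell markers was -3.43, -2.44 and -3.51 log2 units in the FNI libraries and -1.33, -2.61 and -1.67 log2 units in the FNI+I-125 libraries. FNI+I-125 replicates 1 and 3 were the highest libraries on this scale, where the marker list had the larger fall. Minus the mean of the adipocyte markers, the enzymes stood at 0.004, -0.516 and -0.948 log2 units in the FNI libraries. The FNI+I-125 values of that difference were -0.133, 0.435 and -0.941 log2 units. Among the adipocyte markers, ADIPOQ, the adipocyte hormone adiponectin, stood at 1123, 1121 and 1838 CPM against 754, 771 and 780 CPM. All 5 adipocyte markers tested were negative, with a median log2 fold change of -1.74 (-0.65 without FNI replicate 3) and summed levels of 1322 to 3197 CPM against 900 to 1172 CPM, while RETN was at or near 0 in every library.

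The macrophage markers went the opposite way. All 13 with a value had a positive log2 fold change, with a median of 1.61, or 1.15 without FNI replicate 3. Their summed level was 1755, 2338 and 388 CPM in the FNI replicates and 2867, 7176 and 3504 CPM in the FNI+I-125 replicates. FNI replicate 3 was the lowest library for this list, and FNI+I-125 replicate 2 was the highest, with 3994 CPM from GPNMB. Of 6 sebaceous gland markers, AWAT1, AWAT2, ELOVL3 and KRT79 were at 0.77 CPM or less in every library, and the summed level of the list was 13.4 to 66.8 CPM. The 6 fibroblast markers summed to 68900 to 137700 CPM in the FNI group and 98020 to 189000 CPM with the seed, and their median log2 fold change was 0.29, or 0.05 without FNI replicate 3. The 6 endothelium markers had a median of -0.28 (1710 to 2834 CPM over all libraries), and the 6 T cell markers one of 1.68 (2.01 to 51.0 CPM). The part of these cell types in the values of the cholesterol genes was not tested.

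**Figure D3:**
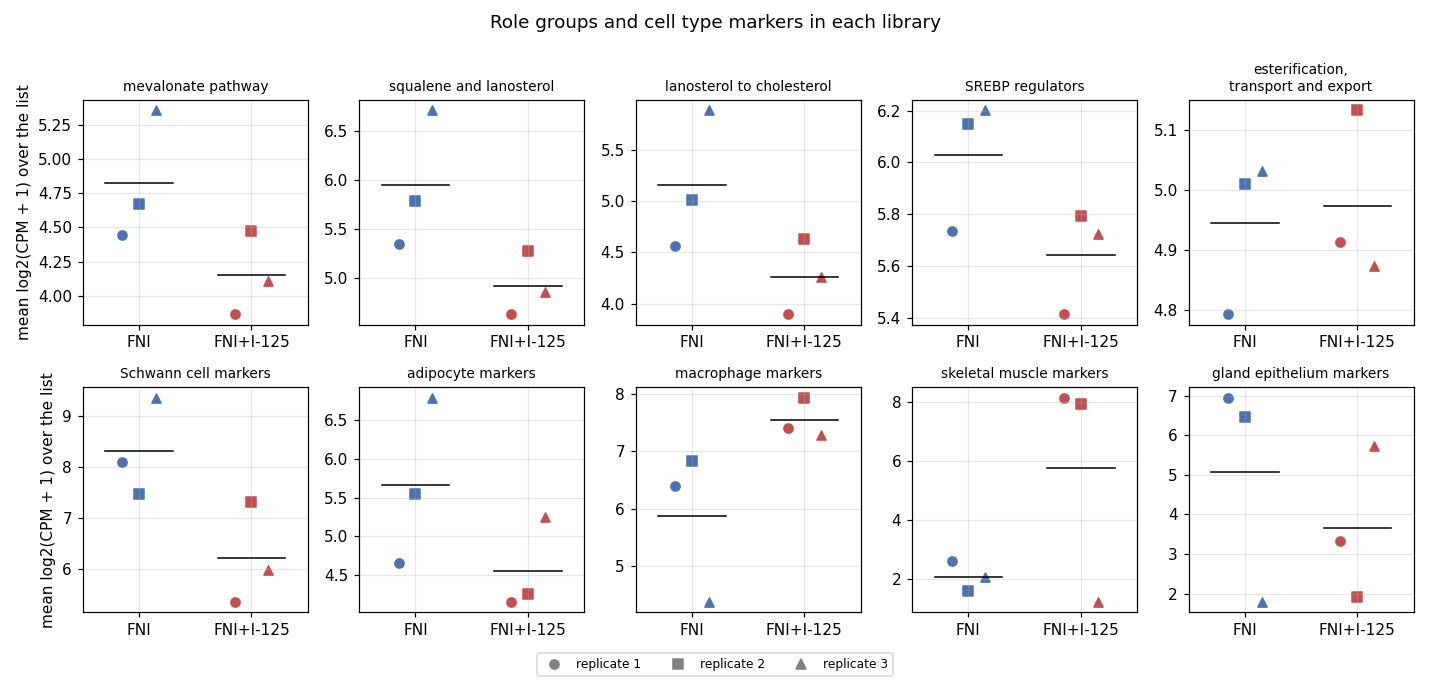
Mean log2(CPM + 1) (vertical axes, which do not start at 0 and differ between panels) over each of the 5 role groups of cholesterol genes (top) and over 5 lists of cell type markers (bottom), in the FNI libraries (blue) and the FNI+I-125 libraries (red), with the replicate as the symbol and the group mean as a line. FNI replicate 3 is highest for the 3 groups of synthesis enzymes and for Schwann cell and adipocyte markers and lowest for macrophage markers.

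Lists of further genes of the pathway were read against the same background. At the unadjusted p, 9.23% of all genes tested were higher and 7.73% lower. The counts of these short lists were not tested against those shares. Among 9 receptors and adaptors of sterol uptake, 2 were higher at the unadjusted p and 0 lower. MSR1, the class A scavenger receptor of macrophages, which takes up modified lipoproteins, had 11.1, 14.6 and 0.71 CPM in the FNI group and 130, 57.8 and 54.2 CPM in the FNI+I-125 group, without overlap and with a log2 fold change of 3.20 (SE 1.00). OLR1, the oxidized LDL receptor LOX-1, had 0.53, 0.94 and 0.30 CPM against 7.84, 3.65 and 5.16 CPM, a log2 fold change of 3.22 (SE 0.55). Both receptors were lowest in FNI replicate 3 and highest in FNI+I-125 replicate 1, and log2 fold changes were 2.63 and 2.89 without FNI replicate 3. The list as a whole had 5 positive and 4 negative members, with a median of 0.02, or 0.34 without FNI replicate 3.

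Among 18 other genes of sterol storage, transport and export, 1 was higher and 3 lower at the unadjusted p. Of all genes tested, 9.23% were higher and 7.73% lower, and the median log2 fold change of the 18 was -0.09. PLIN2, the coat protein of lipid droplets, was the higher one, with 50.3, 52.7 and 42.6 CPM against 115, 88.8 and 95.9 CPM. The groups were well apart for PLIN2, its log2 fold change was 1.04 (SE 0.15, adjusted p = 0.280 by edgeR's quasi-likelihood test, Benjamini-Hochberg), and with each library left out in turn it stayed between 0.93 and 1.10. CYP27A1, which makes 27-hydroxycholesterol, had 42.3, 37.9 and 68.9 CPM against 17.3, 29.97 and 24.5 CPM, a log2 fold change of -1.05. NR1H3, the oxysterol receptor LXR alpha that activates ABCA1 and ABCG1, had 37.9, 34.1 and 64.1 CPM against 26.8, 31.5 and 27.5 CPM. Its log2 fold change of -0.67 was -0.35 without FNI replicate 3, and that of GRAMD1B, a carrier of cholesterol from the plasma membrane to the endoplasmic reticulum, was -0.41. Of 8 further genes with a value for SREBP processing and turnover, ERLIN2 was lower at the unadjusted p (-0.39) and 0 were higher, and of 4 other genes of sterol synthesis with a value, 0 passed in either direction. The medians of these lists were -0.08 and -0.11, or -0.02 and -0.21 without FNI replicate 3.

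Fatty acid synthesis genes, which SREBP-1 activates, had 11 of 14 negative and a median log2 fold change of -0.42 (-0.26 without FNI replicate 3). At the unadjusted p, 3 were lower and 1 higher, against 7.73% and 9.23% of all genes. FADS2, the delta-6 desaturase, had 190, 185 and 319 CPM against 106, 119 and 130 CPM. The groups did not overlap for FADS2, whose log2 fold change was -0.97 (SE 0.25), or -0.68 without FNI replicate 3. ACSS2, which makes acetyl-CoA from acetate, had 44.5, 270 and 93.2 CPM against 24.7, 44.9 and 42.3 CPM. FNI replicate 2 was the high library, and the log2 fold change of ACSS2 was -1.86, between -2.29 and -0.89 with 1 library left out. LPIN1, a phosphatidate phosphatase, stood at -1.46, or -0.68 without FNI replicate 3. ME1, which supplies NADPH, was the higher gene, with 5.62, 9.63 and 11.3 CPM against 28.9, 19.5 and 16.5 CPM and a log2 fold change of 1.29 (SE 0.34).

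**Figure D4:**
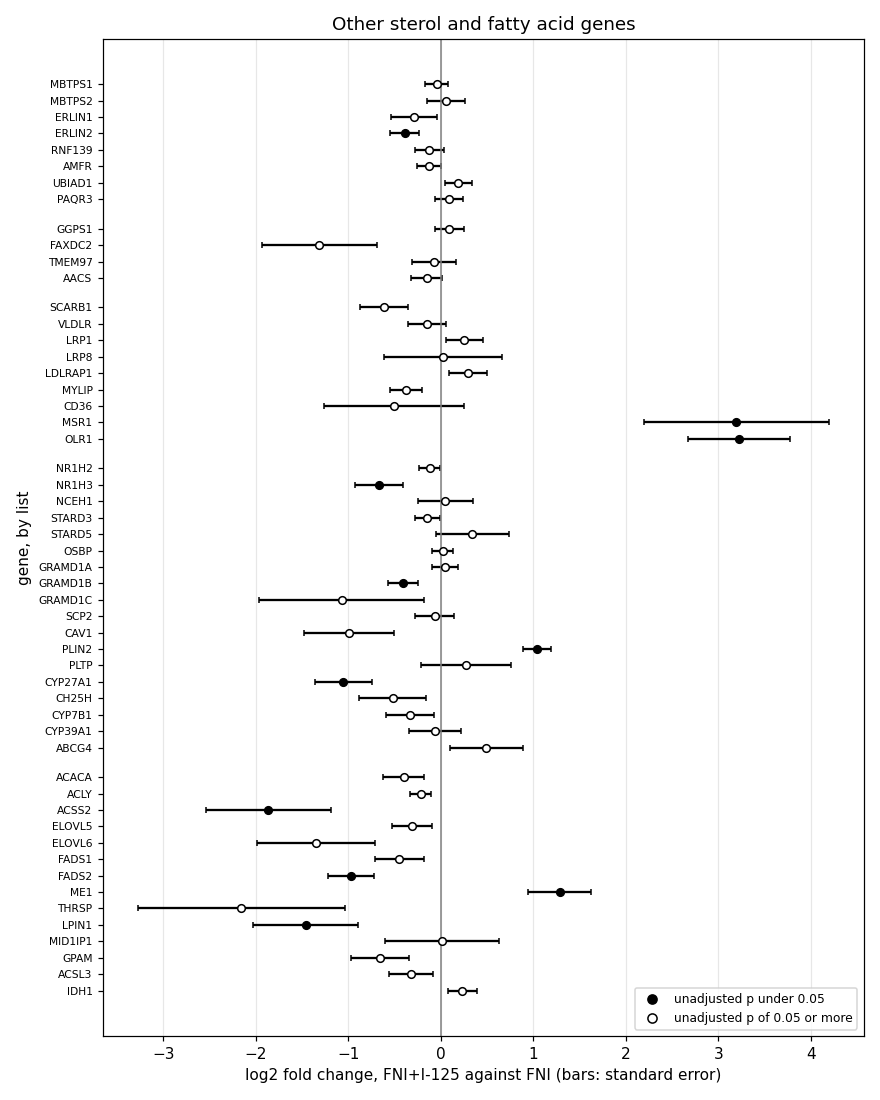
Log2 fold change of FNI+I-125 against FNI (horizontal axis, bars showing the standard error) for further genes of SREBP processing, sterol synthesis, sterol uptake, sterol storage, transport and export, and fatty acid synthesis (vertical axis, from top to bottom). Filled points have an unadjusted p under 0.05; MSR1 and OLR1 lie farthest right at 3.20 and 3.22.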

How the data were processed

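Facial nerve RNA was measured in 6 libraries, 1 per rabbit, on day 14. For each library the authors deposited a table of raw read counts by gene, not normalized. The submitters' processing notes name HISAT2 and OryCun2.0. The counting program, its strand setting and the versions are not given in the sources used here, and the labels name a stranded mRNA kit. Of 2992 LOC numbers, 542 could be paired with a symbol through RefSeq (mOryCun1.1). Since that assembly is not the one named for the files, no coordinates are given, and sequences were not analysed here. The 25 rows with a spreadsheet date for a name hold 0.188% of the counts and were kept in the tests.

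Differences were tested with edgeR 4.0.16 under R 4.3.3 (glmQLFit and glmQLFTest with default settings, TMM, filterByExpr with a minimum count of 10, two-sided, Benjamini-Hochberg adjustment over 14003 genes). Standard errors were taken from the log2 fold change and its F value. A call needed |log2 FC| of at least 1.5 and an adjusted p below 0.05, the study's criteria. For single genes, log2(CPM + 1) was also put to an exact permutation test, whose smallest p with 3 against 3 libraries is 0.1. DESeq2 1.42.0, limma 3.58.1 (voom), other normalizations and filters, a replicate block and leaving out libraries were the alternatives. Replicate pairs differed by more than sampling noise. In counts simulated for this comparison on 13802 genes, edgeR recovered 172 of 200 genes altered by 3 log2 units and made 10 wrong calls, DESeq2 recovered 195 with 59 wrong calls, and limma-voom 171 with 8. Every member had a smaller log2 fold change than those simulated, so the recovery does not apply to changes of the members' size. Total counts of 16031151 to 16798012 allow up to 3 counts behind a 0, for counting error only.

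All members are named. From each further list of the pathway at most 4 genes are named, those of lowest unadjusted p below 0.05, and from the marker lists genes of the highest mean CPM. RETN, AWAT1, AWAT2, ELOVL3 and KRT79 were named after their values were seen. The members and lists, written from general knowledge, were chosen with earlier results of these data known. MVD, DHCR7, and of the further lists SPRING1, ERG28, FASN, SCD and PNPLA3, were not analysed here.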

Additional observations from a re-analysis of the deposited data

How the results depend on the processing

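With DESeq2, 236 genes were called higher and 163 lower by the study's criteria, against 0 and 0 with edgeR. With each library left out in turn, edgeR gave 0 to 38 higher and 0 to 2 lower genes, the highest counts without FNI+I-125 replicate 3. Members lower at an unadjusted p under 0.05 ran from 2 (without FNI+I-125 replicate 1) to 14 (without FNI replicate 1) with 1 library left out, and were 0 without both muscle-rich libraries, an alternative chosen after seeing the data. Members higher were 0 to 1 with 1 library left out (SOAT1 without FNI+I-125 replicate 1, ABCG1 without replicate 3) and 1 with the replicate block. The block left 8 members lower, with EBP and SREBF1 in place of SQLE and SREBF2. Libraries with the same number did not deviate together (r of 0.05, -0.19 and -0.14 across genes), and 0 of 6 correlated best with their own number, so the numbers were not taken to pair the rabbits. With 1 library left out, the median log2 fold change ran from -1.02 to -0.37 for the mevalonate pathway, from -1.39 to -0.41 for lanosterol to cholesterol, both nearest 0 without FNI replicate 3, and from 0.21 to 0.39 for esterification, transport and export, which was -0.031 without both muscle-rich libraries. The medians ran from -1.45 to -0.68 for squalene and lanosterol, nearest 0 without FNI replicate 3, and from -0.58 to -0.27 for the SREBP regulators, nearest 0 without FNI+I-125 replicate 1. Signs changed for HSD17B7 (-0.003 with upper-quartile normalization, -0.10 to 0.17 with 1 library left out), INSIG2 (-0.110 to 0.063, and 0.081 without both muscle-rich libraries), STARD4 (-0.032 to 0.527, and -0.112) and ABCG1 (-0.031 without both muscle-rich libraries). The cause of these changes was not tested. The other member values kept their sign under every alternative. Of all genes, 1293 were higher and 1082 lower at the unadjusted p, and 1008 and 1379 with upper-quartile normalization. Members lower without overlap were 8, where 12.3% of all genes were, and 9 to 11 with other scalings, added after seeing the data. The share of all genes under those scalings was not analysed here, so the rise cannot be read as particular to the members. At this depth no member was near the limit of detection.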
